A study of Mus musculus with 7 samples.

Results

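Hmgcs1, Fdft1, Sqle, Idi1, Srebf2, Insig1 and Abca1 are 7 genes of cholesterol handling, and their mRNA was followed here in stimulated spleen monocytes of the mouse. They were taken by name, as genes whose probe set carries a single gene symbol. Of the 7 genes, 6 had such a probe set, 1 each, among 22180 genes with a single symbol in the table. The Idi1 probe set also carries the symbol Gm13502, so no value is given for Idi1. The 7 arrays fall into 5 groups. Cells received HL7G, an antiphospholipid monoclonal antibody (such autoantibodies define antiphospholipid syndrome), at 400 ng/ml (mouse 1 and mouse 2, n = 2). Others received R848, an agonist of TLR7, at 2 µg/ml, CpG B, an oligonucleotide agonist of TLR9, at 2.5 µM, or poly I:C, a synthetic double-stranded RNA and TLR3 agonist, at 1 µg/ml (mouse 1 only, 1 array each). Unstimulated cells of mouse 1 and mouse 2 were the controls (n = 2). Stimulation lasted 3 h, and cells of all groups were wild type for EPCR (the endothelial protein C receptor). The sources used here do not give the strain, age or sex of the mice, how monocytes were selected, or how long unstimulated cells were kept. An IgG condition named in the protocol was not analysed here.

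Cells make cholesterol from acetyl-CoA through the mevalonate pathway. When sterols in the endoplasmic reticulum run low, the escort protein Scap carries the membrane-bound factor SREBP-2, the product of Srebf2, to the Golgi, where proteases release its active part. SREBP-2 then switches on the synthesis genes, while Insig1 holds Scap back when sterols are plentiful. Abca1 works in the other direction: it exports cholesterol and is a classical target of the oxysterol-sensing LXR receptors. Abca1 is an exporter, so none of the 7 genes serves uptake itself.

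The 250 bases before the transcription start are shown for Hmgcs1, Srebf2, Insig1 and Abca1, since SREBP-2 and its partner factors act through short elements in such stretches. The sequences come from RefSeq, build GRCm38.p6, and read 5′ to 3′ on the strand of the gene. RefSeq promoter entries were at hand for 5 of the 7 genes. Sqle and Fdft1 have none in that table, and Idi1 has one that is not shown because the gene has no value. Hmgcs1 lies at chr13:119690101-119690350 (plus strand), Srebf2 at chr15:82147019-82147268 (plus strand), Insig1 at chr5:28071162-28071411 (plus strand) and Abca1 at chr4:53159896-53160145 (minus strand). The start is that of the promoter entry. The annotated Abca1 gene reaches to position 53159988, so part of the Abca1 stretch lies inside the gene. Capitals mark matches on either strand to the sterol regulatory element core CACNCCAC, to the shifted form ATCACNCCA, which lacks the last letter of the core, or to the E-box CACGTG.
Hmgcs1: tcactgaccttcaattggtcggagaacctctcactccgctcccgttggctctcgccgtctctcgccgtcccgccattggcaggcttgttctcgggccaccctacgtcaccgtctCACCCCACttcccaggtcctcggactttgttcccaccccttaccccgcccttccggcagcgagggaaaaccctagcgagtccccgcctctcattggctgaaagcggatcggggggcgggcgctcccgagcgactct
Srebf2: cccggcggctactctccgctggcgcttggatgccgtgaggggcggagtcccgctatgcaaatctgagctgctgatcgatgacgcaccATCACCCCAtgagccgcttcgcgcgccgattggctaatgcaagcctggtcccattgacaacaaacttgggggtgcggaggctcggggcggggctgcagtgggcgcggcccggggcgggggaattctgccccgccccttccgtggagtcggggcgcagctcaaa
Insig1: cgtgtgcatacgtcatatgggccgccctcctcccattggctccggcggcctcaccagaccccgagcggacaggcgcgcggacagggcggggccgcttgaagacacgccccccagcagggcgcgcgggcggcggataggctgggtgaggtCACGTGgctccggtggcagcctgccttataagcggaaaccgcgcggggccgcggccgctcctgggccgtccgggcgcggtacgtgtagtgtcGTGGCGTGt
Abca1: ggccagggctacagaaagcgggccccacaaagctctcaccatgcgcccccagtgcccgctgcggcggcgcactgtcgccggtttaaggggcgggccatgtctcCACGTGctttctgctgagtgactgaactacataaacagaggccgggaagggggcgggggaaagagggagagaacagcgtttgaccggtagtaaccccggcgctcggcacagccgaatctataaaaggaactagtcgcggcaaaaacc

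The Hmgcs1 stretch holds CACCCCAC, a match to the core, 136 to 129 bases before the start. Insig1 has a match on the opposite strand 9 to 2 bases before the start. The core was found in 5.288% of 32851 promoter stretches of the same length. Srebf2 has no match to the core. It holds ATCACCCCA 163 to 155 bases before the start, a form present in 0.712% of stretches and added to the search after the letters of these stretches had been seen. The NF-Y box CCAAT, bound by a factor that works beside SREBP-2, occurred 3 times in Hmgcs1, 1 time in Srebf2 and 1 time in Insig1, against 33.85% of all stretches with at least 1 match. The E-box stood in Insig1 and Abca1 and in 6.021% of stretches. A 10-letter sterol regulatory element was searched too, and so was an exact direct repeat with 4 spacer bases, a form that LXR receptors bind. Neither exact form is in the windows of the 5 genes. Both are rare, at 0.192% and 0.015% of stretches in the same order. LXR sites with letters that differ from the exact repeat, in Abca1 or the other genes, were not searched, so their presence was not tested. The Sp1 box GGGCGG was in all 5 and in 32.742% of stretches, and the nuclear receptor motif AGGTCA was in Insig1 and Hmgcs1 and in 14.024%.

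Hmgcs1 and Srebf2 rose with HL7G. Hmgcs1, the synthase that makes HMG-CoA for the mevalonate pathway, rose 2.62-fold, and Srebf2, the transcription factor that drives the pathway, rose 2.40-fold. Sqle, Fdft1 and Insig1 did not pass the test, and Abca1 was too dim on every array to be tested. With R848, CpG B and poly I:C, each read on 1 array, Hmgcs1, Srebf2 and Insig1 also lay above both unstimulated arrays, but no gene of the whole table was called there. The levels below are log2 expression values. A gene was tested if it reached a log2 level of 5 on at least 1 array, which kept 11119 genes and 5 of the 6 measured sterol genes. Hmgcs1 and Sqle reached that level only on stimulated arrays, so the Hmgcs1 fold is set against unstimulated readings near background. Differences are log2 differences with their standard errors (SE) from limma, and a gene was called at a Benjamini-Hochberg adjusted p under 0.05 over all 11119 genes. The Srebf2 rise depended on scaling: its difference shrank to 0.31 with loess and to 0.60 with quantile scaling, and neither was called. Median centring kept its call, at 1.14. Over the 1337 bright genes (mean level 6 or more), Srebf2 among them, the median HL7G difference was 0.86, against 1.27 for Srebf2. Tested among these genes alone, Srebf2 was not called (adjusted p = 0.0511 in limma).

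**Figure D1:**
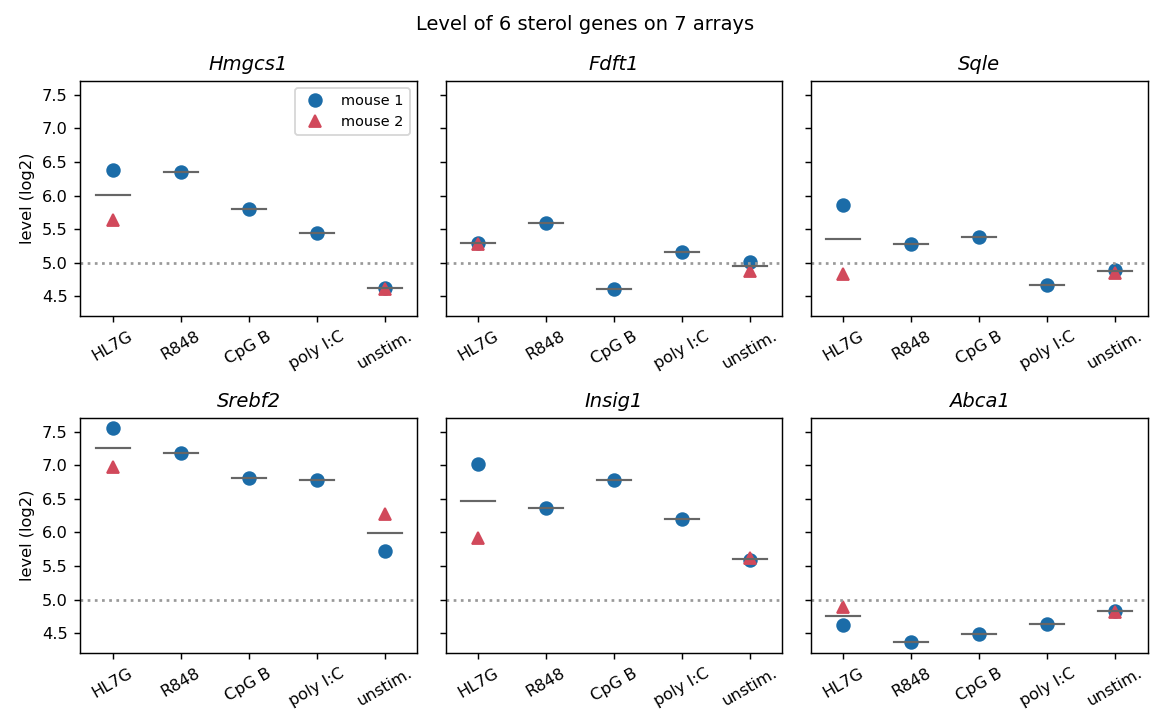
Log2 level (vertical axis) of the 6 measured sterol genes in HL7G, R848, CpG B, poly I:C and unstimulated samples (horizontal axis). Circles are mouse 1, triangles mouse 2, grey bars group means, and the dotted line is the level of 5 needed for testing. Hmgcs1 lies between 5.45 and 6.38 on the 5 stimulated arrays, all above the 4.63 and 4.62 of the unstimulated arrays, whereas Abca1 stays at or under 4.89 throughout.

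Among the synthesis enzymes, Hmgcs1 read 6.38 and 5.64 in the HL7G samples of mouse 1 and mouse 2, 6.35 with R848, 5.80 with CpG B and 5.45 with poly I:C, against 4.63 and 4.62 in unstimulated cells of the same mice. All 5 stimulated arrays lay above both unstimulated ones, and the unstimulated pair differed by 0.01. The mean was 6.01 ± 0.52 with HL7G and 4.62 ± 0.0075 without stimulation (SD, n = 2 each). The difference with HL7G was 1.39 ± 0.29 (SE, n = 2 against 2, adjusted p = 0.0214), with 1.75 in mouse 1 and 1.03 in mouse 2. A larger difference was seen for 8.95% of tested genes. Leaving out either unstimulated array ended the call while the difference stayed at 1.39 without that of mouse 1 (adjusted p = 0.135) and 1.38 without that of mouse 2 (adjusted p = 0.0863).

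Fdft1, squalene synthase, which commits the pathway to sterols, read 5.29 and 5.29 in the HL7G samples, 5.59 with R848, 4.60 with CpG B and 5.15 with poly I:C, against 5.01 and 4.88 in unstimulated cells. The CpG B array was the lowest of all, and the other 4 stimulated arrays lay above both unstimulated ones. The HL7G difference was 0.34 ± 0.21 (adjusted p = 0.274, 95% interval -0.15 to 0.84), close to the same size in mouse 1 (0.28) and mouse 2 (0.40). Sqle, squalene epoxidase, which starts the oxygen-dependent part of synthesis, read 5.86 in mouse 1 and 4.84 in mouse 2 with HL7G, 5.28 with R848, 5.38 with CpG B and 4.67 with poly I:C, against 4.90 and 4.85 in unstimulated cells. The HL7G samples lay on both sides of the unstimulated ones: mouse 1 was 0.96 higher and mouse 2 was at -0.02. The HL7G difference of Sqle was 0.47 ± 0.34 (adjusted p = 0.346, 95% interval -0.34 to 1.29). Without the mouse 2 HL7G array Sqle had 0.98, whereas with the mouse 1 HL7G array left out it had -0.040.

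Among the control genes, Srebf2 read 7.55 and 6.98 in the HL7G samples of mouse 1 and mouse 2, 7.18 with R848, 6.81 with CpG B and 6.78 with poly I:C, against 5.72 and 6.27 in unstimulated cells of the same mice. Every stimulated array was above both unstimulated arrays, and the unstimulated pair was 0.55 apart. The mean was 7.26 ± 0.40 with HL7G and 5.997 ± 0.39 without stimulation (SD, n = 2 each). With HL7G the difference was 1.27 ± 0.30 (adjusted p = 0.0300), made of 1.83 in mouse 1 and 0.70 in mouse 2. A larger difference was seen for 11.0% of tested genes. The call ended without the unstimulated array of mouse 1 (0.99, adjusted p = 0.202) or of mouse 2 (1.54, adjusted p = 0.0541), and with HL7G read in mouse 2 alone (0.98, adjusted p = 0.0757). It also ended under 2 rescalings of the tested genes, with 0.31 after loess (adjusted p = 0.347) and 0.60 after quantile normalization (adjusted p = 0.138).

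Insig1, which retains the SREBP-2 escort in the endoplasmic reticulum, read 7.02 in mouse 1 and 5.91 in mouse 2 with HL7G, 6.36 with R848, 6.78 with CpG B and 6.19 with poly I:C, against 5.58 and 5.62 in unstimulated cells. It too was higher on all 5 stimulated arrays, with the mouse 2 HL7G array the nearest to the unstimulated pair. The HL7G difference was 0.87 ± 0.36 (adjusted p = 0.136, 95% interval 0.0090 to 1.72), with 1.43 in mouse 1 and 0.30 in mouse 2. Without the mouse 2 HL7G array Insig1 had 1.42. After loess it had 0.26 and after quantile normalization 0.39, in both cases without a call.

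Abca1, the exporter, read 4.62 and 4.89 in the HL7G samples, 4.37 with R848, 4.49 with CpG B and 4.63 with poly I:C, against 4.84 and 4.82 in unstimulated cells. The agonist arrays and the mouse 1 HL7G array were lower than both unstimulated arrays, and the mouse 2 HL7G array was higher. These levels are all under 5, where an array separates expression from background poorly. In a fit with no filter on dim genes Abca1 had -0.07 ± 0.20 with HL7G (adjusted p = 0.823), -0.46 ± 0.24 with R848 (adjusted p = 0.357), -0.34 ± 0.24 with CpG B (adjusted p = 0.671) and -0.19 ± 0.24 with poly I:C (adjusted p = 0.879).

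Of the 5 tested sterol genes, 2 were called higher with HL7G and none lower. Of all tested genes 18.2% were called in that comparison, 16.3% higher, and Hmgcs1 and Sqle had passed the filter only through stimulated arrays, so this count is a description. The median difference of the 5 was 0.87, beside 0.06 over all tested genes. It was 0.86 over the 1337 genes with a mean level of 6 or more, which include Srebf2 and Insig1. In all, 3 of the 5 (Hmgcs1, Srebf2 and Insig1) had every stimulated array above both unstimulated arrays, as had 27.4% of tested genes. The 2024 calls were 89.6% higher. Their number was 2 without the mouse 1 unstimulated array, 862 without that of mouse 2, 1348 without the HL7G array of mouse 1 and 3295 without that of mouse 2. That share was 78.4% with median centring, 68.7% after loess and 57.6% after quantile normalization, and the median over all genes moved to -0.07, -0.08 and -0.12. Under these 3 scalings Hmgcs1 had the largest difference of the 5 genes, at 1.26, 1.16 and 1.09, and kept its call.

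Levels of abundant transcripts moved with these differences. The list follows abundant transcripts that earlier results of these same data showed low on the unstimulated arrays, so its counts and summed level are a description. Of 8 listed, 7 were measured and tested, and 5 were called higher and 1 lower with HL7G, beside 16.3% and 1.89% of all tested genes. Actb, the cytoskeletal actin, read 9.34 and 8.31 with HL7G and 7.77 to 8.49 with the agonists, against 5.02 and 6.81 in unstimulated cells. Gapdh, an enzyme of glycolysis, was the 1 called lower: it read 7.75 and 8.07 with HL7G, against 9.13 and 8.75 in unstimulated cells (-1.03, adjusted p = 0.0317). The summed level of the 7 (log2 of the sum of linear values) lay between 11.6 and 12.3 on stimulated arrays, against 9.83 and 10.9 on the unstimulated arrays of mouse 1 and mouse 2. Among 1337 bright genes, whose mean level reached 6 or more and which include Srebf2 and Insig1 but not Hmgcs1, Fdft1 or Sqle, the median HL7G difference was 0.86. With only those genes tested Srebf2 kept 1.27 with an adjusted p of 0.0511. The part of low readings of bright transcripts in the Srebf2 and Insig1 differences was not tested.

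Markers of B and T cells moved in the same direction as Hmgcs1 and Srebf2, whereas those of NK cells did not. Of 8 listed B cell markers 7 were measured and 6 tested, with 5 called higher with HL7G. Of 8 T cell markers 7 were measured and 6 tested, with 3 called higher, beside 16.3% of all tested genes. Among those called, Ms4a1, Fcer2a and Cd3g reached a level of 5 only on stimulated arrays, so these counts are a description. The summed level of the B cell list lay between 8.52 and 9.21 on stimulated arrays, against 7.72 and 7.96 on the unstimulated ones. The T cell list lay between 8.22 and 9.06, against 7.80 and 7.996. Of 6 NK cell markers 2 were tested and none was called, with a median HL7G difference of -0.53, and their summed level lay between 7.23 and 7.41, against 7.56 and 7.32. Of the 10 monocyte and macrophage markers, all measured, 5 were tested and 1 was called. Lyz2, lysozyme, rose by 1.79 (adjusted p = 0.0186), with 6.20 and 7.02 in HL7G samples, against 4.53 and 5.11 in unstimulated cells. Cx3cr1, a chemokine receptor of monocytes, had -0.82 and was not called (adjusted p = 0.0692). The summed level of this list lay between 8.33 and 8.68, against 8.29 and 8.49, and its defining genes Ly6c2 and Ccr2, under 5 on all arrays, stayed at or under 4.38 and 4.09. Csf1r, the receptor for the growth factor of these cells, read 5.58 and 5.61 with HL7G, against 4.86 and 5.36, and was not called (adjusted p = 0.200). Of the remaining lists, none of 3 tested neutrophil and 4 tested dendritic cell markers was called with HL7G. In the red pulp macrophage list 1 of 2 tested was called, Hmox1 at 1.43 (adjusted p = 0.0357). In the endothelial and stromal list 1 of 4 tested was called, Pecam1 at 1.22 (adjusted p = 0.0197), and the list median was -0.23. No listed marker is at 0, since array values have no true zero. In such bulk samples fewer cells of a type and less RNA per cell cannot be told apart, and the part of other cell types in the sterol gene differences was not tested.

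**Figure D2:**
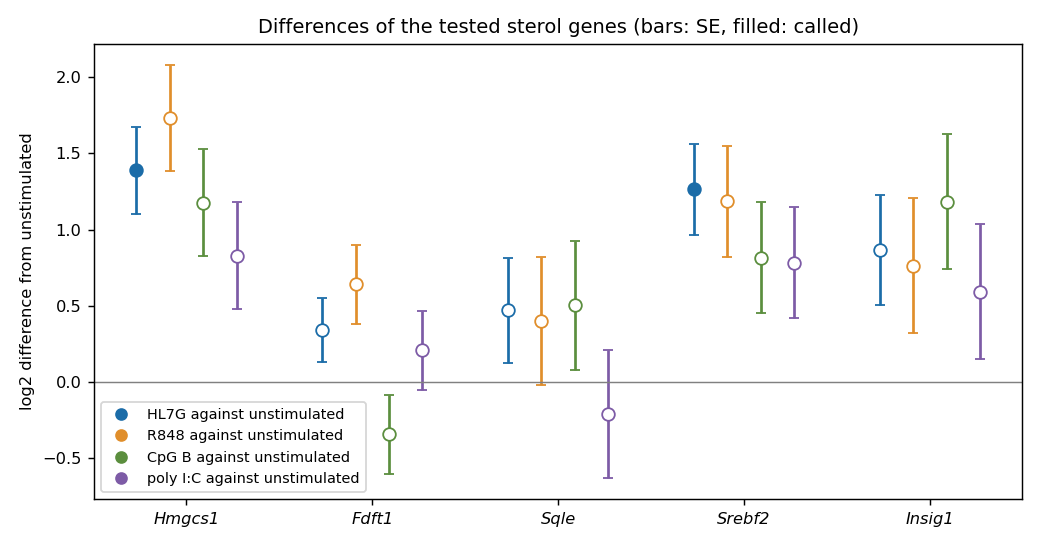
Log2 difference from the unstimulated samples (vertical axis) of the 5 tested sterol genes (horizontal axis) for HL7G, R848, CpG B and poly I:C, with SE bars from limma and filled points for called differences. Only the HL7G differences of Hmgcs1 (1.39) and Srebf2 (1.27) are filled, and Fdft1 with CpG B (-0.34) and Sqle with poly I:C (-0.21) lie below 0.

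With each of the Toll-like receptor agonists Hmgcs1, Srebf2 and Insig1 lay above 0, as with HL7G, without a call. These comparisons use the same 2 unstimulated arrays as the HL7G comparison, so the 4 sets of differences are not independent. With R848, Hmgcs1 had 1.73 ± 0.35 (adjusted p = 0.0861), Srebf2 1.19 ± 0.36 (adjusted p = 0.130), Insig1 0.76 ± 0.44 (adjusted p = 0.351), Fdft1 0.64 ± 0.26 (adjusted p = 0.202) and Sqle 0.40 ± 0.42 (adjusted p = 0.611). Here 0 of the 5 genes were called, beside 0% of all genes, and 2550 genes had an unadjusted p under 0.05 in limma. For Hmgcs1, 3.43% of tested genes had a larger difference with R848. Hmgcs1 was called with R848 after quantile normalization (1.55, adjusted p = 0.0277). Its difference stayed at 1.73 when either HL7G array was left out, which changes only the shared spread.

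CpG B gave the largest agonist difference of Insig1, 1.18 ± 0.44 (adjusted p = 0.349), about as large as that of Hmgcs1, 1.18 ± 0.35 (adjusted p = 0.273). Srebf2 had 0.82 ± 0.36 (adjusted p = 0.419), Sqle 0.503 ± 0.42 (adjusted p = 0.673) and Fdft1 -0.34 ± 0.26 (adjusted p = 0.627). Again 0 of the 5 genes and 0% of all genes were called, with 1370 genes at an unadjusted p under 0.05. Leaving out either HL7G array kept the CpG B differences of Hmgcs1 and Insig1 and changed only the shared spread.

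With poly I:C Hmgcs1 had 0.83 ± 0.35 (adjusted p = 0.522), Srebf2 0.78 ± 0.36 (adjusted p = 0.564) and Insig1 0.59 ± 0.44 (adjusted p = 0.744). Fdft1 had 0.21 ± 0.26 (adjusted p = 0.840) and Sqle -0.21 ± 0.42 (adjusted p = 0.912). None of the 5 was called, beside 0% of all genes, and 1054 genes had an unadjusted p under 0.05. Set against the unstimulated array of mouse 1 alone, which shares the animal with the agonist arrays, Srebf2 had 1.46 with R848, 1.09 with CpG B and 1.06 with poly I:C, and Hmgcs1 had 1.73, 1.17 and 0.82 in the same order.

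The stimuli were also compared with each other, without the unstimulated arrays. HL7G minus the mean of the 3 agonists was 0.14 ± 0.26 for Hmgcs1 (95% interval -0.47 to 0.76), 0.34 ± 0.27 for Srebf2 (-0.31 to 0.98), 0.02 ± 0.33 for Insig1 (-0.76 to 0.80), 0.17 ± 0.19 for Fdft1 (-0.28 to 0.63) and 0.24 ± 0.31 for Sqle (-0.504 to 0.98). Adjusted p lay between 0.712 and 0.988 for these 5 genes. No gene was called (0%), with 1202 at an unadjusted p under 0.05. The intervals allow differences of either sign, so these values do not show that HL7G and the agonists act alike.

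Poly I:C minus the mean of R848 and CpG B was -0.63 ± 0.35 for Hmgcs1 (95% interval -1.45 to 0.20), -0.66 ± 0.42 for Sqle (-1.66 to 0.34), -0.38 ± 0.44 for Insig1 (-1.43 to 0.67), -0.22 ± 0.36 for Srebf2 (-1.08 to 0.64) and 0.06 ± 0.26 for Fdft1 (-0.55 to 0.67). The adjusted p was 0.99991 for all 5, no gene of the table was called (0%), and 187 had an unadjusted p under 0.05. Hmgcs1 and Sqle were lower with poly I:C than on each of the other 2 agonist arrays. Of tested genes 97.1% lay above Hmgcs1 and 97.7% above Sqle in this difference, against 88.2% above Insig1, 73.8% above Srebf2 and 34.1% above Fdft1. Each agonist was read on 1 array, and the Sqle reading with poly I:C, 4.67, was under 5.

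Other genes of the pathway were taken from 6 lists that hold 65 genes besides the 7. Of these, 54 had a probe set and 33 were tested. With HL7G, 29 of the 33 lay above 0, beside 53.04% of all tested genes, 3 were called higher, beside 16.3% of all tested genes, and none lower. Their median was 0.39. Of the 33, 11 reached a level of 5 only on stimulated arrays, as did 25.4% of all tested genes, so the filter itself favours differences above 0 and these counts are a description. With the agonists none of the 33 was called, and the median was 0.31 with R848, 0.17 with CpG B and 0.15 with poly I:C.

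**Figure D3:**
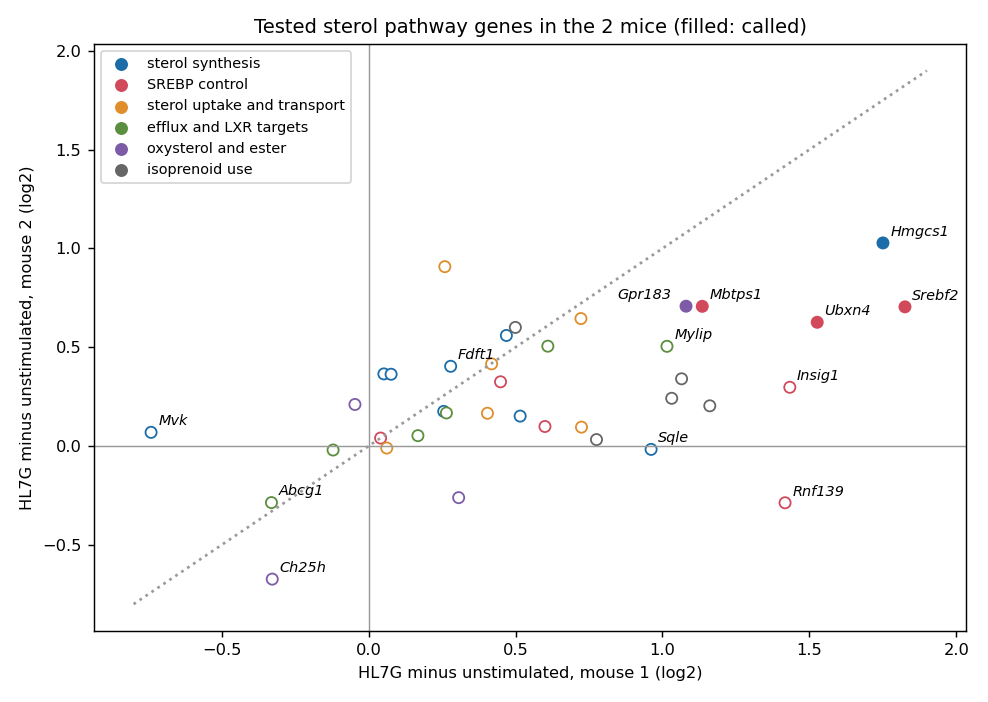
HL7G minus unstimulated (log2) in mouse 1 (horizontal axis) and mouse 2 (vertical axis) for the tested genes of the 6 sterol pathway lists, the 5 tested sterol genes included, coloured by list and filled where called. The dotted line marks equal differences. Hmgcs1, Srebf2, Ubxn4, Mbtps1 and Gpr183 are filled, and Sqle (0.96 and -0.02) lies on the horizontal zero line.

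The remaining synthesis enzymes were not called. Of 13 others measured, 6 were tested (Mvk, Pmvk, Mvd, Fdps, Tm7sf2 and Msmo1), with HL7G differences between -0.34 for Mvk, mevalonate kinase, and 0.51 for Pmvk, the next kinase in the chain, and a median of 0.22. On the list for SREBP control, 2 of 6 tested others were called, beside 18.2% of all tested genes. Of these 2, only Mbtps1 acts on SREBP-2 itself. Mbtps1, the site-1 protease that cuts SREBP-2 in the Golgi, read 6.09 and 5.83 with HL7G, against 4.95 and 5.12 in unstimulated cells, a difference of 0.92 ± 0.22 (adjusted p = 0.0325). Ubxn4, which acts in protein degradation at the endoplasmic reticulum, read 5.99 and 5.70, against 4.47 and 5.08, a difference of 1.08 ± 0.28 (adjusted p = 0.0386). Both pairs of HL7G values lay above the unstimulated pairs. With a term for the mouse both calls ended (adjusted p = 0.0583 for Mbtps1 and 0.0508 for Ubxn4), as they did under each rescaling (adjusted p between 0.0508 and 0.0637). Leaving out 1 of the HL7G or unstimulated arrays ended both calls too (adjusted p up to 0.221 for Mbtps1 and 0.255 for Ubxn4), except for the mouse 2 HL7G array.

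Scap, the escort, had 0.39 ± 0.21 (adjusted p = 0.231) on the brighter of its 2 probe sets. With the mean of both it had 0.06. Srebf1, the related factor of fatty acid synthesis, stayed between 4.52 and 5.09 on all arrays and had 0.04 ± 0.23 (adjusted p = 0.903). Of the uptake and transport list 6 of 10 measured genes were tested and none was called, with a median of 0.41. Of these 6 genes 4 had passed the filter only through stimulated arrays, as had 25.4% of all tested genes.

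Among efflux and LXR genes 6 of 8 measured others were tested and none was called, with a median of 0.16. Abcg1, a partner of Abca1 in cholesterol export, read 5.63 and 5.74 with HL7G and 5.54, 5.93 and 5.53 with R848, CpG B and poly I:C, against 5.96 and 6.02 in unstimulated cells. All 5 stimulated arrays were below both unstimulated ones, as for 15.3% of tested genes. The HL7G difference of Abcg1 was -0.31 ± 0.21 (adjusted p = 0.316), and it was called only after quantile normalization (-0.72, adjusted p = 0.0489). Mylip, a ubiquitin ligase and LXR target, had 0.76 ± 0.24 (adjusted p = 0.0710).

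In the list of oxysterol and ester genes 4 of 7 were tested. Gpr183, a receptor through which oxysterols guide immune cells, was called at 0.89 ± 0.23 (adjusted p = 0.0388), with 6.61 and 6.24 in HL7G samples, against 5.53 and 5.53 in unstimulated cells. Its call ended with a mouse term in the fit (adjusted p = 0.0623), in all 3 rescalings (0.76 with median centring, 0.46 after quantile normalization and 0.38 after loess), with only bright genes tested, and without either unstimulated array or the mouse 1 HL7G array. Gpr183 is expressed by B cells as well, whose markers moved with it. The part of B cells in the Gpr183 difference was not tested. Ch25h, which makes an oxysterol that blocks SREBP-2, had -0.501 ± 0.22 on its brighter probe set (adjusted p = 0.153). None of 5 tested genes of isoprenoid use was called. Of these 5 genes 4 had passed the filter only through stimulated arrays, and the median was 0.64.

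The genes closest in pattern were found by the root mean square difference of mean-centred log2 levels over the 7 arrays, among 9624 named tested genes. For Hmgcs1 these were Atf6 (0.096), a stress sensor of the endoplasmic reticulum that the same Golgi proteases cut, Chordc1 (0.11), a partner of HSP90, and Rexo2 (0.12), a mitochondrial nuclease. For Srebf2 they were Hdlbp (0.054), an RNA-binding protein, Lin7c (0.064) and Ankle2 (0.085). For Insig1 they were Utp20 (0.093) and Wdr3 (0.11), both of ribosome assembly, and the survival factor Bcl2l1 (0.11).

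Sqle was closest to Tmed5 (0.066), a protein of vesicle traffic, Trmt1l (0.12) and Spata33 (0.13). Fdft1 was closest to Spg7 (0.095), a mitochondrial protease, Eaf1 (0.11) and Zw10 (0.11). The nearest genes to Abca1, among 9625, were Ccdc105 (0.044), Zc3hc1 (0.059) and Gata4 (0.059). Among the 6 sterol genes themselves the closest pair was Hmgcs1 and Srebf2, at 0.25, and the farthest was Hmgcs1 and Abca1, at 0.81. No other sterol gene was as near to Hmgcs1 as the 3 genes named for it. Those 3 were picked as the nearest of 9624, so this does not show whether sterol genes move together.

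**Figure D4:**
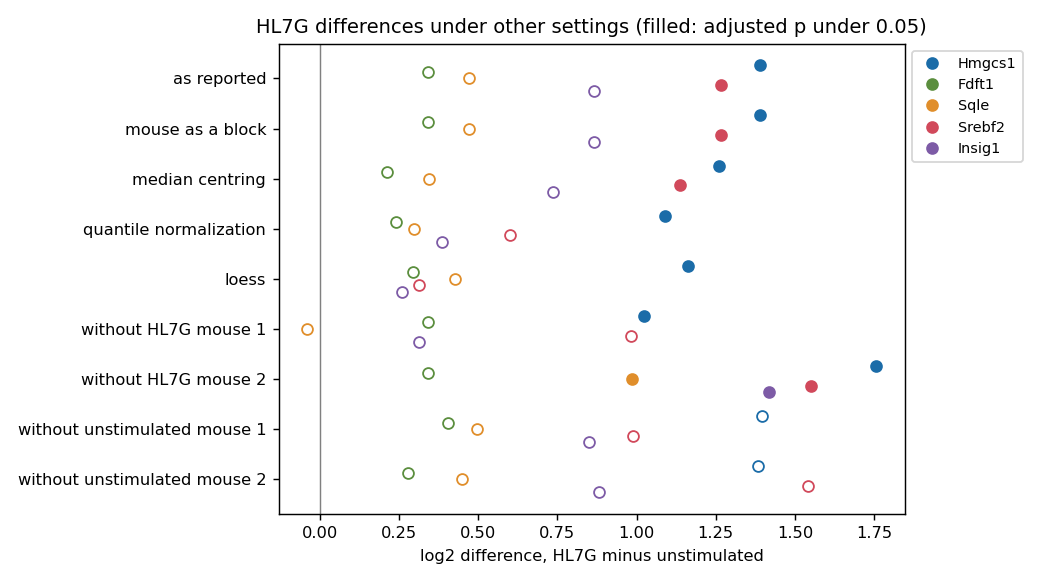
HL7G minus unstimulated difference (log2, horizontal axis) of the 5 tested sterol genes under the reported fit, other fits and scalings, and with 1 array left out (rows), filled where the adjusted p is under 0.05. Hmgcs1 stays between 1.02 and 1.76, whereas Srebf2 ranges from 0.31 after loess to 1.55 without the mouse 2 HL7G array.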

How the data were processed

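Spleen monocytes of 2 mice were profiled on 7 Affymetrix Mouse Gene 2.0 ST arrays. The deposited values are log2 levels per probe set, made by the authors with RMA, per the submitters' processing notes, which also name Expression Console and Transcriptome Analysis Console without versions. No probe-level file was used here, and no build of the array design is given in the sources used here.

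Of 41345 probe sets 23521 carried 1 symbol, 1814 several and 16010 none in GEO's platform annotation. The brightest probe set of a gene was kept. Genes that reached a log2 level of 5 on any array were kept. All 7 arrays in 5 groups entered 1 limma fit (version 3.58.1, R 4.3.3) with 2-sided tests, and the code was tested on simulated data. The fit had 2 residual and 4.94 prior degrees of freedom, so errors and p-values rest on 2 animals, and agonist groups of 1 array were assumed to vary like the others. Precision is limited by the number of arrays.

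The 7 genes, the lists, the tests and the alternatives (mouse as a block, filters, probe set means, 3 rescalings, a variance trend and each array of the paired groups left out) were chosen with earlier results of these data known. All 7 genes are named, with up to 4 called genes of each list, a fixed set of further pathway genes where measured (Srebf1, Scap, Abcg1, Mylip and Ch25h here), and the 3 genes closest in pattern to each. Predicted loci, numbered clones, small RNAs and receptor segments were left out of the last. Same-numbered arrays come from the same mouse, per the labels, so the numbers pair them. Over tested genes the deviations of mouse 2 from mouse 1 in HL7G and unstimulated samples had r = -0.146.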

Additional observations from a re-analysis of the deposited data

Results flagged for a closer look

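For Sqle and for Abca1 the HL7G difference had opposite signs in the 2 mice. This difference between the mice was not tested, since each mouse has 1 array a group. HL7G minus unstimulated was 0.96 in mouse 1 and -0.017 in mouse 2 for Sqle, and -0.21 in mouse 1 and 0.071 in mouse 2 for Abca1. Both mouse 2 differences are small beside the SE of 0.34 for Sqle and of 0.20 for Abca1 in the fit without a filter.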

How the results depend on the processing

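With the mouse as a replicate block the HL7G comparison called the same number of sterol genes, 2 (Hmgcs1 1.39, adjusted p = 0.0203, and Srebf2 1.27, adjusted p = 0.0375), and the block changed no call of the 5 tested genes. With the unstimulated mouse numbers crossed, added after the data were seen, the counts were 2 sterol genes and 2331 genes in all. With HL7G, 1 sterol gene was called after quantile normalization, 1 after loess and 0 among bright genes (mean level 6 or more), where Hmgcs1 was not tested. Leaving out 1 array gave 0 to 4. Over all genes the HL7G count of 2024 became 457 with that mean level (1337 genes tested) and ranged from 2 without the mouse 1 unstimulated array to 3295 without the mouse 2 HL7G array. With R848 it was 5 with the block, 575 after quantile normalization, 51 after loess, 95 with a variance trend and 0 to 1541 with 1 array left out (1541 without either HL7G array), and sterol genes called were 1 after quantile normalization and 0 to 2 with 1 array left out. With CpG B it was 120 after quantile normalization, 2 after loess, 2 with a variance trend and 0 to 530 with 1 array left out (sterol genes 0 to 2). With poly I:C it was 2 with the block, 11 after quantile normalization, 2 with a variance trend and 0 to 198 with 1 array left out. Neither comparison between stimuli gained a call under any alternative.

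Signs turned only for differences that were not called. With 1 array left out Sqle ranged from -0.040 to 0.98 with HL7G. Against the agonists HL7G had -0.22 to 0.51 for Hmgcs1, -0.27 to 0.75 for Sqle and -0.53 to 0.57 for Insig1. After quantile normalization these were -0.069 for Hmgcs1, -0.28 for Insig1 and -0.017 for Srebf2, and Insig1 had -0.040 with median centring and -0.16 after loess. Srebf1 with HL7G had -0.089 with median centring, -0.033 after quantile normalization and -0.077 to 0.16 with 1 array left out. The cause was not tested. A fit without 1 array has 1 residual degree of freedom, which alone can end a call. It can also add calls, since without an HL7G array the residual spread comes from the unstimulated pair alone. In that pair mouse 2 minus mouse 1 was only -0.01 for Hmgcs1, 0.03 for Insig1 and -0.05 for Sqle. Levels near or under 5, as of Sqle, Fdft1 and unstimulated Hmgcs1, are close to background.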
